A study of Mus musculus with 12 samples.

Results

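The genes described here are 5 chemokines, Ccl3, Ccl11, Cxcl5, Cxcl10 and Ppbp, 5 of the 9539 named genes tested, each read by 1 of the 10360 probe sets of the deposited table. They were selected on their large falls from fibroblasts in these same arrays, so their differences from fibroblasts are given as a description, with no test. Chemokines are small secreted proteins that bind G protein-coupled receptors on leukocytes and draw those cells towards the source. They are grouped by the first cysteines of the protein: adjacent in the CC class (Ccl3, Ccl11), separated by a single residue in the CXC class (Cxcl5, Cxcl10, Ppbp). Fibroblasts are a known source of chemokines when stimulated by bacterial products, interleukin 1, tumour necrosis factor or interferons, and many chemokine genes lie in tandem clusters with neighbouring genes of the same class.

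Affymetrix arrays read the RNA of 4 kinds of mouse culture, with 3 arrays for each. The starting cells were fibroblasts at passage 3 with no reprogramming treatment named. Day-1 cells were fibroblasts of mice that derive from Oct4 and Tet1 (OT) iPS cells, grown to passage 3 in feeder medium and then held for 1 day in ES medium with doxycycline. The iPS cells were a single line, OT#b, made with Oct4 and Tet1, at passage 10. R1, the ES cell line, was at passage 20. Fibroblasts, day-1 cells and iPS cells share the OG2-GFP/Rosa26-M2rtTA background by their labels, except that fibroblast replicates 2 and 3 are labelled M3rtTA and M4rtTA, while R1 is labelled 129. Day-1 cells therefore differ from the fibroblasts in doxycycline, in medium and in source at the same time. Both pluripotent lines grew on mitomycin C-treated embryonic fibroblasts, and a step to clear these feeder cells is described for ES cells only. No label says that the arrays of a group come from separate cultures, so each spread and p-value covers variation between these samples, which may be technical.

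Array medians ranged from 8.25 to 8.29 for fibroblasts and day-1 cells, 7.98 to 8.06 for iPS cells and 7.89 to 7.98 for ES cells. Arrays of the same group correlated across genes with r of 0.988 to 0.997. Mean Pou5f1, the gene of Oct4 and a pluripotency factor, was 5.04 in fibroblasts against 11.79 in day-1 cells and reached 12.01 (iPS) and 12.36 (ES). Oct4 is itself a factor used to make the iPS cells. Of 10 pluripotency markers, Pou5f1 alone was called higher at day 1 and 9 were not called, where 3.46% of all genes were called higher. Nanog read 6.12 in fibroblasts and 6.31 in day-1 cells, against 12.59 (iPS) and 12.25 (ES). The 14 fibroblast markers averaged 11.22 to 11.44 per fibroblast array, 10.96 to 11.05 per day-1 array, 8.71 to 8.82 per iPS array and 8.0 to 8.29 per ES array. Of the 14, 3 were called lower than in fibroblasts at day 1, 8 in iPS cells and 13 in ES cells, with 0 higher. Over all genes 4.33%, 29.6% and 32.1% were lower. Those not called in iPS cells included Col1a1 (12.22 against 11.96 in fibroblasts) and Col1a2 (11.98 against 11.78). Every value below is a log2 probe set level, or a difference between such levels, and levels of different genes are not set against each other. The table has no detection calls, so how far the lowest levels stand above array background is not known.

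The sequence upstream of the start site is shown for Cxcl10, Ccl3 and Ppbp, which differ in the share of their fall present at day 1 and are the 3 members matched among the 32851 RefSeq windows used (GRCm38.p6). None is shown for Ccl11 and Cxcl5. Each run is the 250 bases before the annotated start, 5′ to 3′ on the strand of the gene. Capitals mark matches, on either strand, to GAAANNGAAA (an interferon-response form), GGGNNNNNCC (an NF-kB form), TGANTCA (AP-1), TATAAA (the core of a TATA box) or TTGCNNAA (C/EBP).
Cxcl10, chr5:92348890-92349139, minus strand: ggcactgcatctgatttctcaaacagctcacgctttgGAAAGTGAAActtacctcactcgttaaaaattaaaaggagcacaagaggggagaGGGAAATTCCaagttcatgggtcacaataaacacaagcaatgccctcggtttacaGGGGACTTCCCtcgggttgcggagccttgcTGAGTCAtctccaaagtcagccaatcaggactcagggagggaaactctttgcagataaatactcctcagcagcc
Ccl3, chr11:83649379-83649628, minus strand: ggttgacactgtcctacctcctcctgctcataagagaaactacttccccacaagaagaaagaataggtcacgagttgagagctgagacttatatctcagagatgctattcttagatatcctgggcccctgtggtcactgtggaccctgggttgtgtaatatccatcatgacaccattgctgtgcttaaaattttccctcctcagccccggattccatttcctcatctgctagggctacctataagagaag
Ppbp, chr5:90768268-90768517, plus strand: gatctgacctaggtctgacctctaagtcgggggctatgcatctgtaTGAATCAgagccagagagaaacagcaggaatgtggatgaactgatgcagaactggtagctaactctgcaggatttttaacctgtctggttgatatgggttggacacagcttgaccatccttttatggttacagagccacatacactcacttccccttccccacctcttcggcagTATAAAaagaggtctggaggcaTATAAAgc

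The Cxcl10 window held the interferon form GAAAGTGAAA, whose first base lay 213 bases before the start. It also held NF-kB forms at 159, 104 and 103 bases, the last pair overlapping, and the AP-1 form TGAGTCA at 74 bases. The Ppbp window held the AP-1 form TGAATCA at 204 bases and TATAAA at 30 and 8 bases before the start. None of the 5 motifs was found in the Ccl3 window. Among all 32851 windows cut to the same length, 2.98% held the interferon form, 45.8% the NF-kB form, 6.75% the AP-1 form, 12.4% TATAAA and 9.56% the C/EBP form. Matches describe letters and not bound sites.

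Ccl3, also known as macrophage inflammatory protein 1 alpha, attracts monocytes and T cells. Its level was 11.09, 11.52 and 11.55 on the fibroblast arrays, 6.11, 6.06 and 5.89 on the day-1 arrays, 5.63, 5.72 and 5.86 on the iPS arrays and 5.29, 5.22 and 4.93 on the ES arrays. All 3 fibroblast arrays were far above the other 9, and the other groups did not overlap each other, with ES cells lowest. The day-1 mean was 41.2-fold below the fibroblast mean, a log2 difference of -5.37 ± 0.13 (SE), and the differences of iPS and ES cells were -5.65 ± 0.13 and -6.24 ± 0.13. Because the arrays read bulk RNA, fewer cells making a chemokine and less of its RNA per cell cannot be told apart, here or for any other gene.

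Ccl11, or eotaxin, attracts eosinophils through Ccr3. Fibroblast arrays read 11.32, 12.12 and 12.06, day-1 arrays 7.28, 6.96 and 7.24, iPS arrays 5.93, 6.10 and 5.90, and ES arrays 6.88, 6.73 and 7.10. Fibroblasts were again highest on every array and iPS cells lowest, while the day-1 and ES arrays overlapped. Against fibroblasts, day-1 cells differed by -4.67 ± 0.18 (SE), iPS cells by -5.86 ± 0.18 and ES cells by -4.93 ± 0.18.

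Cxcl10 is an interferon-induced ligand of Cxcr3, the receptor that brings activated T and natural killer cells into tissue. The fibroblast arrays gave 9.96, 10.82 and 10.80, the day-1 arrays 5.96, 5.89 and 5.62, the iPS arrays 6.37, 6.20 and 5.99, and the ES arrays 5.73, 6.02 and 5.71. Fibroblasts stood well above the rest, where ES arrays overlapped both day-1 and iPS arrays and the iPS arrays lay just above the day-1 arrays. Day-1 cells were 26.0-fold below fibroblasts (log2 difference -4.70 ± 0.20, SE), iPS cells 20.2-fold (-4.34 ± 0.20) and ES cells 26.1-fold (-4.70 ± 0.20).

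Cxcl5 attracts neutrophils through Cxcr2. It stood at 12.04, 12.15 and 12.33 in fibroblasts and at 9.87, 9.96 and 9.92 in day-1 cells, then at 5.35, 5.11 and 5.42 in iPS cells and 6.33, 6.41 and 6.50 in ES cells. The 4 groups formed 4 separate levels, with day-1 cells in between and iPS cells below ES cells. The day-1 mean was 4.77-fold below fibroblasts (-2.25 ± 0.10, SE), against 117-fold in iPS cells (-6.87 ± 0.10) and 54.0-fold in ES cells (-5.76 ± 0.10).

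Ppbp encodes pro-platelet basic protein, the precursor of Cxcl7, a Cxcr2 ligand best known from platelet granules. Its level was 13.10, 12.74 and 12.68 on the fibroblast arrays, 11.35, 11.62 and 11.54 on the day-1 arrays, 5.22, 5.02 and 4.83 on the iPS arrays, and 5.34, 5.0 and 5.18 on the ES arrays. Fibroblasts and day-1 cells were separate from each other and far above both pluripotent lines, which overlapped. The day-1 difference was 2.53-fold (-1.34 ± 0.13, SE). The falls in iPS cells, 225-fold (-7.82 ± 0.13), and in ES cells, 203-fold (-7.66 ± 0.13), ranked 1 among the 9539 genes ordered from the lowest difference, in each of these comparisons.

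**Figure D1:**
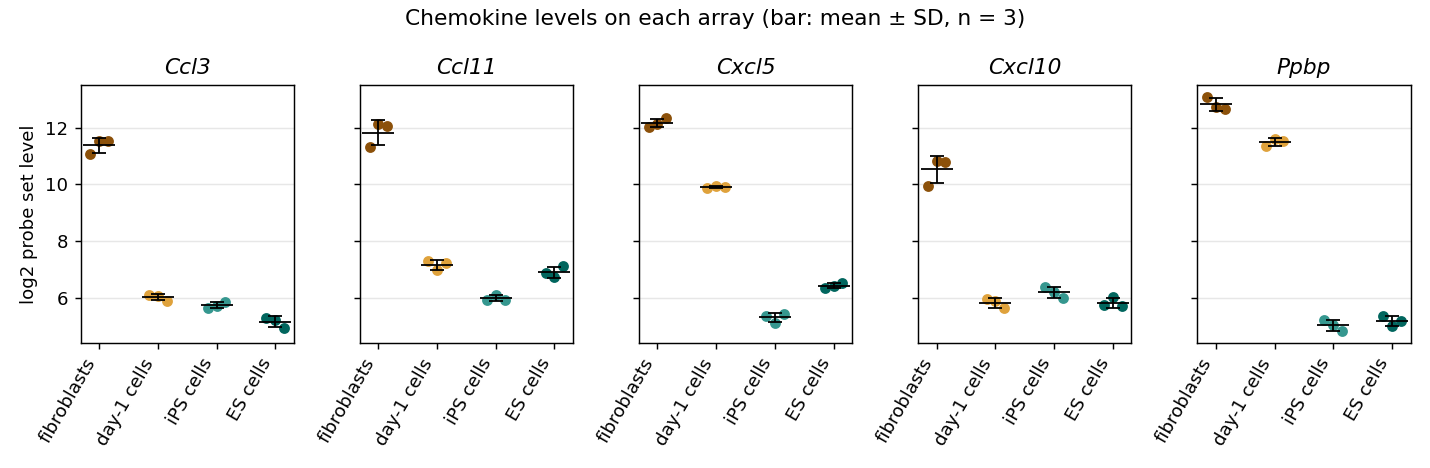
Log2 probe set level (vertical axis) of the 5 chemokines on each of the 12 arrays, by group. Points are arrays and black bars the mean ± SD of 3 arrays. Each gene is to be read within its own panel: the day-1 mean lies 5.37 below the fibroblast mean for Ccl3, 4.67 for Ccl11 and 4.70 for Cxcl10, and 2.25 for Cxcl5 and 1.34 for Ppbp.

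Of the log2 fall between fibroblasts and iPS cells, day-1 cells showed 95% for Ccl3 (93.4 to 97.2% over the 3 day-1 arrays). They showed 79.8% for Ccl11 (77.7 to 83.2%) and 108% for Cxcl10 (105 to 113%). The share was 32.8% for Cxcl5 (32.2 to 33.4%) and 17.1% for Ppbp (15.6 to 19.1%). With ES cells as the end point the shares were 86% for Ccl3, 94.7% for Ccl11, 99.9% for Cxcl10, 39.1% for Cxcl5 and 17.4% for Ppbp. As a reference, the 2822 genes called lower in iPS cells than in fibroblasts had a median share of 13.6% (quartiles -3.77 and 32.4%), and the 88 of them with a fall of at least 4 on the log2 scale had a median of 35.7% (quartiles 19.2 and 72.1%). Both reference sets include the 5 members. Ordered by the day-1 difference from the lowest of the 9539 genes, Ccl3 ranked 4, Cxcl10 8, Ccl11 9, Cxcl5 96 and Ppbp 244. Shares and ranks rest on the contrast that chose the members and are not tested. The shares compare separate groups and do not follow a culture over time.

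**Figure D2:**
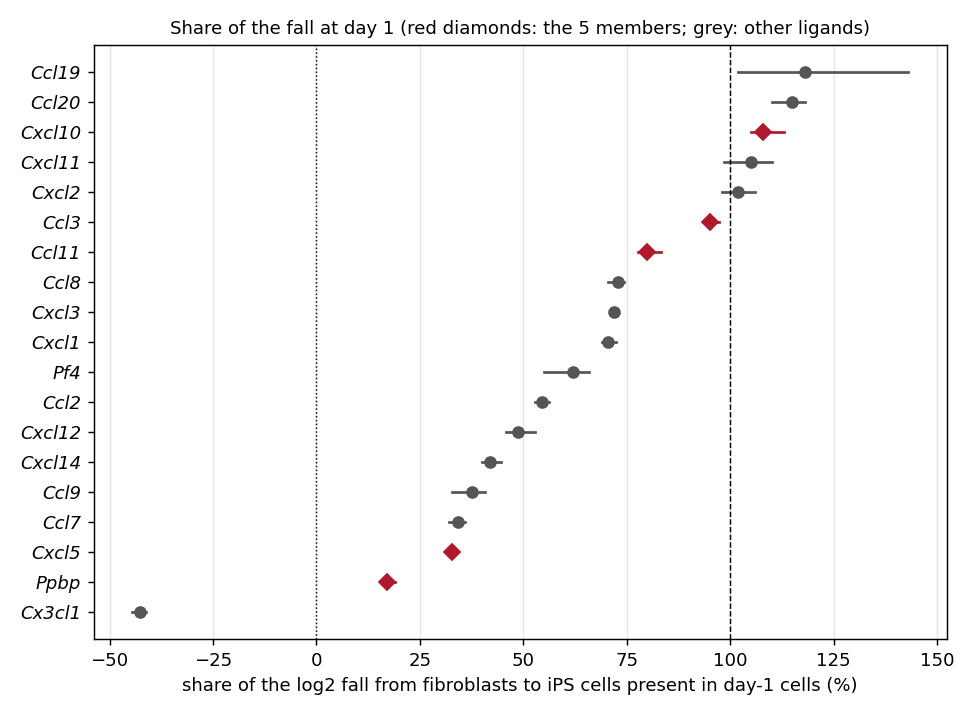
Share of each gene's log2 fall from fibroblasts to iPS cells that was present in day-1 cells, in percent (horizontal axis), for the 5 members (red diamonds) and the other measured chemokine ligands that fell by at least 1 on the log2 scale (grey circles). Lines span the 3 day-1 arrays. Cxcl10 (108%) and Ccl3 (95%) lie near the dashed line at 100%, Cxcl5 (32.8%) and Ppbp (17.1%) low on the axis, and Cx3cl1 (-42.6%) was higher at day 1 than in fibroblasts.

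Differences among day-1, iPS and ES cells were tested, since the fibroblast arrays that chose the members do not enter them, although the day-1, iPS and ES arrays did enter the falls used for the choice. A gene was called when its limma adjusted p was under 0.05 and its difference at least 1 on the log2 scale. In iPS cells against day-1 cells, 3 of the 5 genes were lower: Ppbp by 89.3-fold (log2 difference -6.48 ± 0.13, SE; limma adjusted p = 4.1e-13), Cxcl5 by 24.6-fold (-4.62 ± 0.10; limma adjusted p = 4.1e-13) and Ccl11 by 2.27-fold (-1.19 ± 0.18; limma adjusted p = 2.9e-05). Of all genes, 26.6% were called lower in this comparison and 17.6% higher, and Ppbp had the lowest difference of all, with Cxcl5 at rank 6. With each array centred on the common median the Ccl11 difference was -0.93 and no longer reached 2-fold. Ccl3 (-0.28 ± 0.13; limma adjusted p = 0.052; 95% interval -0.56 to 0.00) and Cxcl10 (0.36 ± 0.20; limma adjusted p = 0.095; -0.06 to 0.79) were not called.

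ES cells against day-1 cells gave the same order for the neutrophil chemokines. Ppbp was 80.3-fold lower (-6.33 ± 0.13, SE; limma adjusted p = 2.5e-13) and Cxcl5 11.3-fold lower (-3.50 ± 0.10; limma adjusted p = 1.7e-12), with all 3 ES arrays below all 3 day-1 arrays for both. The background was 29.5% of genes called lower and 20.4% called higher. Ccl3 passed the adjusted p but not the 2-fold minimum (-0.87 ± 0.13; limma adjusted p = 2.3e-05). Ccl11 (-0.26 ± 0.18, 95% interval -0.65 to 0.13) and Cxcl10 (0.00 ± 0.20, -0.43 to 0.43) were not called, and their intervals lay within 2-fold. Both had positive differences after quantile normalization and with centred arrays.

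Cxcl5 was 2.17-fold lower in iPS cells than in ES cells (-1.12 ± 0.10, SE; limma adjusted p = 8.9e-07), the sole call, against a background of 2.45% of genes called lower and 4.44% called higher. Ccl11 had an iPS minus ES difference of -0.93 ± 0.18 (limma adjusted p = 7.1e-04), with no overlap between the arrays, and stayed short of 2-fold. It passed 2-fold after quantile normalization (-1.10), with arrays centred on the common median (-1.02) and without the ES array of replicate 2 (-1.01). Ccl3, with a difference of 0.59 ± 0.13 (limma adjusted p = 0.0018), was short of 2-fold too. Cxcl10 (0.37 ± 0.20, 95% interval -0.06 to 0.80) and Ppbp (-0.15 ± 0.13, -0.44 to 0.14) overlapped between the lines.

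**Figure D3:**
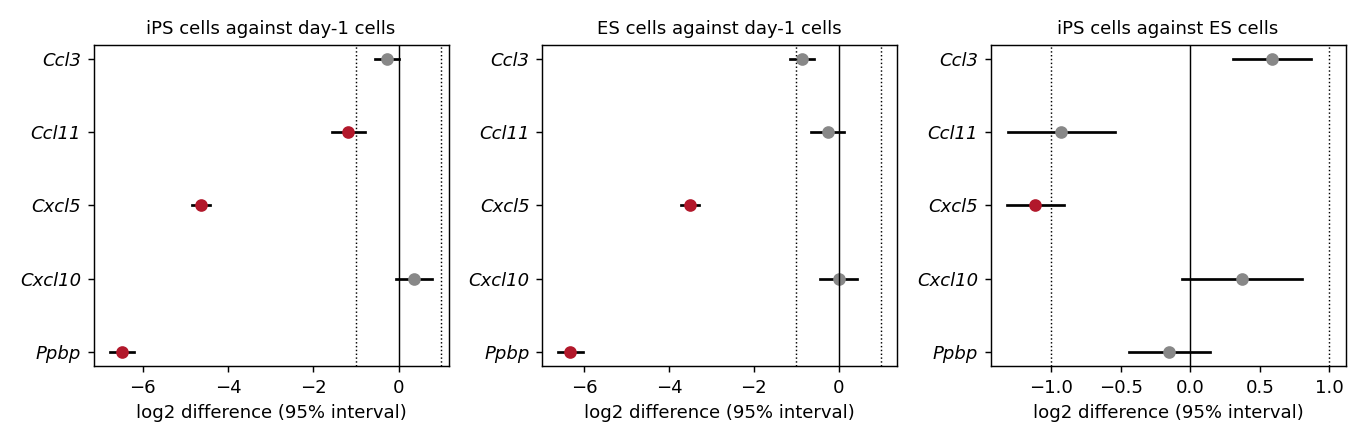
Log2 difference (horizontal axis) of each member in the 3 comparisons without fibroblasts, with its 95% interval. Red points passed the call, grey points did not, and dotted lines mark 2-fold. Ppbp and Cxcl5 sit at -6.48 and -4.62 in iPS cells against day-1 cells, and Cxcl5 alone passes in iPS against ES cells, at -1.12.

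Fibroblast markers also differed between the pluripotent lines: 4 of 14 were called higher in iPS than in ES cells, among them the matrix genes Col1a2 (11.98 against 9.38) and Postn (9.47 against 6.73), and 1, Dcn, was called lower (7.31 against 9.39), where 4.44% of all genes were higher and 2.45% lower. Of 13 measured proteases and glycan carriers that cut or hold chemokines, 1 was called lower in iPS than in ES cells and 4 higher. The lower gene was the matrix protease Mmp3 (5.78 against 9.66), and the higher genes included Sdc2 (8.48 against 6.14). The part of fibroblast or feeder RNA in the member differences was not tested.

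Cxcl5 and Ppbp are adjacent on mouse chromosome 5, with Pf4, Cxcl3, Cxcl15, Cxcl1 and Cxcl2 following in RefSeq order, and the measured genes of this cluster differed in how much of their fall was present at day 1. Cxcl2, a neutrophil chemokine, fell from 9.54 ± 0.32 (SD, n = 3) in fibroblasts to 5.63 ± 0.16 at day 1 and read 5.71 ± 0.11 in the iPS line, a share of 102%. Cxcl3 showed 71.8% of its fall at day 1 and Cxcl1 70.5%. Pf4, the platelet factor gene that directly follows Ppbp, read 6.70 ± 0.08 in fibroblasts against 5.91 ± 0.08 at day 1 and 5.43 ± 0.20 in the iPS line, a share of 62.1%. Ppbp, at 17.1%, thus had the smallest share of the 6 measured genes, and Cxcl5, at 32.8%, the next. Cxcl15 was not analysed here.

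Ccl11 lies on chromosome 11 between Ccl7 and Ccl12, with Ccl2 before and Ccl8 after them. Ccl7, a monocyte chemokine, stood at 12.87 ± 0.07 (SD, n = 3) in fibroblasts, then 11.10 ± 0.10 at day 1 and 7.68 ± 0.24 in the iPS line, so that day-1 cells showed 34.2% of its fall. The share was 54.5% for Ccl2 and 72.9% for Ccl8, against 79.8% for Ccl11. Near Ccl3, on the same chromosome, the measured chemokine was Ccl9, with a share of 37.6%, against 95% for Ccl3. Ccl4, which directly follows Ccl3 in RefSeq order, was not analysed here. Cxcl11 lies near Cxcl10, is listed in RefSeq as a transcribed pseudogene of the reference strain, and read 7.48 ± 0.45 in fibroblasts against 5.09 ± 0.14 (day 1), 5.21 ± 0.19 (iPS) and 5.48 ± 0.12 (ES).

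**Figure D4:**
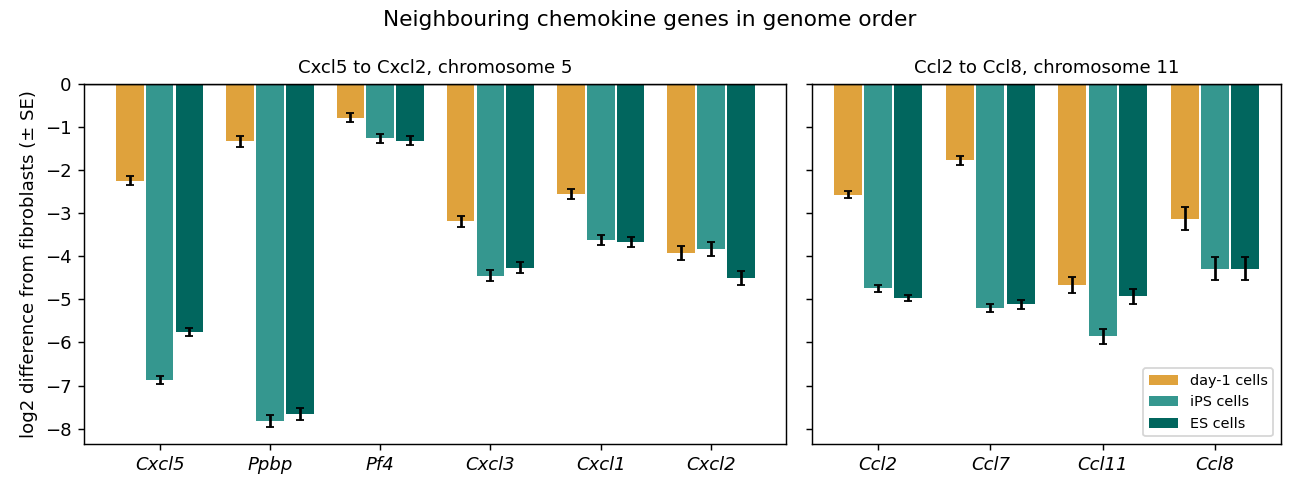
Log2 difference from fibroblasts (vertical axis, ± SE) in day-1, iPS and ES cells for the measured chemokine genes of 2 clusters, in genome order. Day-1 bars are short beside the iPS bars for Ppbp (-1.34 against -7.82), Cxcl5 (-2.25 against -6.87) and Ccl7 (-1.78 against -5.20), and nearly as long for Cxcl2 (-3.92 against -3.83).

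Other chemokine ligands were taken from a list of 33 genes, of which 16 were in the table. Since every probe set of the table varies by at least 0.51 between arrays, members of a list that are flat or low everywhere may be missing from it. In day-1 cells 10 of the 16 were called lower than in fibroblasts and 0 higher, where 4.33% of all genes were called lower and 3.46% higher. Limma gave an unadjusted p under 0.05 for 5870 of the 9539 genes here. The median difference of the 16 was -1.92, against 0.05 over all genes. Cxcl2 (-3.92 ± 0.16, SE), Ccl20, an attractant of Ccr6-bearing cells (-3.54 ± 0.11), Cxcl3 (-3.19 ± 0.13), Ccl8 (-3.13 ± 0.27), Ccl2, the main monocyte attractant (-2.58 ± 0.08), Cxcl1 (-2.56 ± 0.11), Cxcl11 (-2.39 ± 0.18), Ccl19 (-2.06 ± 0.41), Ccl7 (-1.78 ± 0.10) and Cxcl12 (-1.06 ± 0.18) fell. Cxcl14 (-0.93), Ccl9 (-0.86), Pf4 (-0.79) and Ccl25 (-0.71) were not called. The membrane-bound ligand Cx3cl1 (0.88 ± 0.09; limma adjusted p = 4.7e-06) and Ccl17 (0.94 ± 0.10; limma adjusted p = 5.4e-06) had positive differences, below the 2-fold minimum. The members themselves were 5 of 5 lower, which the choice fixes. Called ligands numbered 12 without the fibroblast array of replicate 1 and 9 without that of replicate 2 or of replicate 3.

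In iPS cells 14 of the 16 other ligands were lower than in fibroblasts and 0 higher, against 29.6% of all genes lower and 21.8% higher. The largest falls were those of Ccl7 (-5.20 ± 0.10, SE), Ccl2 (-4.74 ± 0.08), Cxcl3 (-4.45 ± 0.13) and Ccl8 (-4.29 ± 0.27), and Ccl17 (-0.80) and Ccl25 (-0.39) were not called. In ES cells 14 were lower and 0 higher, against 32.1% and 23.4% of all genes, with Ccl2 at -4.97 ± 0.08, Ccl7 at -5.12 ± 0.10 and Cxcl2 at -4.50 ± 0.16, and with Ccl17 (-0.59) and Ccl19 (-0.93) not called. The median difference was -2.28 in iPS and -3.11 in ES cells, where the median of all genes was itself -0.35. All 3 comparisons share the fibroblast arrays.

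With each array centred on the common median, the balance of calls over all genes shifted. The share of calls that were higher was 42.4% for iPS and 42.2% for ES cells against fibroblasts, and 55.9% and 58.7% with centred arrays. It was 39.8% and 40.9% against day-1 cells, and 55.3% and 58.3% with centred arrays. In iPS against ES cells it was 64.4%, and 51.4% with centred arrays.

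Of the 16 other ligands, 10 were lower in iPS cells than in day-1 cells and 0 higher, against 26.6% and 17.6% of all genes. The lowest differences were those of Ccl7 (-3.42 ± 0.10, SE), Cx3cl1 (-2.96 ± 0.09) and Ccl2 (-2.16 ± 0.08). Cxcl2 (0.08 ± 0.16), Cxcl11 (0.12 ± 0.18), Ccl19 (0.32), Ccl25 (0.33), Ccl20 (0.45) and Pf4 (-0.48) were not called. In ES cells 10 were lower than in day-1 cells and Ccl19 was higher (1.13 ± 0.41; limma adjusted p = 0.018), against 29.5% and 20.4% of all genes. Between iPS and ES cells 1 of 16 was called, Cxcl14, higher in iPS cells (1.22 ± 0.21; limma adjusted p = 3.4e-04), a share near that of all genes, of which 4.44% were called higher and 2.45% lower.

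Of 23 chemokine receptors on the list 4 were in the table, and Ccr3, Cxcr2 and Cxcr3, receptors of Ccl11, of Cxcl5 and Ppbp, and of Cxcl10, were not analysed here. Ackr3, a scavenging receptor for Cxcl11 and Cxcl12, was below its fibroblast level at day 1 (-1.87 ± 0.14, SE) and in both iPS (-1.57 ± 0.14) and ES cells (-2.41 ± 0.14). Cxcr6 read 6.42 in fibroblasts and 7.36 in day-1 cells, which was not called, and was lower in iPS (-1.01 ± 0.12) and ES cells (-1.27 ± 0.12). Cxcr4, the Cxcl12 receptor, was called higher in ES cells (1.43 ± 0.09). It read 5.44 in fibroblasts, 6.19 in day-1 cells and 6.37 in iPS cells, with no call in the last 2 groups. Ccr4 read 4.91 in fibroblasts, 5.07 in day-1, 5.89 in iPS and 5.76 in ES cells, with no call against fibroblasts. Of the 4, 1 was lower than in fibroblasts at day 1, 2 in iPS and 2 in ES cells. Over all genes 4.33%, 29.6% and 32.1% were lower. Cxcr4 in ES cells was the 1 higher call, where 23.4% of all genes were higher.

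Many chemokine genes are induced through NF-kB and interferon signalling. Of 15 measured genes of the NF-kB list, 7 were lower in day-1 cells and 0 higher, 8 lower in iPS cells and 11 lower in ES cells, with medians of -0.93, -1.42 and -1.76. Over all genes, which serve as the background for this and the next lists, 4.33% were lower at day 1, 29.6% in iPS cells and 32.1% in ES cells. The feedback inhibitors Tnfaip3 (-2.30 ± 0.12, SE) and Nfkbia (-1.79 ± 0.09), the kinase gene Ikbke (-1.94 ± 0.08) and Nfkbiz (-1.69 ± 0.15) fell most in day-1 cells. In iPS cells Ikbke (-2.88 ± 0.08) and the C/EBP factor Cebpd (-2.69 ± 0.16) led. Of 15 genes of interferon signalling and RNA sensing, 4 were lower in day-1 cells, against 4.33% of all genes: Irf7, which amplifies interferon (-3.43 ± 0.23), the RNA sensor Ifih1 (-3.19 ± 0.14), Stat2 (-2.65 ± 0.10) and Tlr3 (-2.15 ± 0.14). Irf5 was the 1 member higher, at 6.80 ± 0.01 (SD, n = 3) in fibroblasts against 7.86 ± 0.11 at day 1. The list's median difference was -0.34 at day 1, -2.41 in iPS cells (11 lower, where 29.6% of all genes were) and -3.34 in ES cells (12 lower, where 32.1% were).

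A further list of 21 measured genes held inflammatory cytokines, cytokine and Toll-like receptors, their signalling genes, and the inhibitors Il1rn and Irak3. Of these, 5 were lower in day-1 cells and 0 higher, against 4.33% and 3.46% of all genes: Il6 (-3.49 ± 0.18, SE), the bacterial lipoprotein receptor Tlr2 (-1.77 ± 0.18), Cd14, the co-receptor for bacterial lipopolysaccharide (-1.54 ± 0.11), the interleukin 1 receptor subunit Il1rap (-1.42 ± 0.07) and Irak3, which restrains Toll-like receptor signalling (9.87 in fibroblasts against 8.74 at day 1). In iPS cells 18 of the 21 were lower (29.6% of all genes), with Il6 at -4.61 ± 0.18, Il1r1 at -4.45 ± 0.14 and Il1rap at -4.19 ± 0.07. In ES cells 17 were lower (32.1% of all genes), with Il6 at -5.16 ± 0.18 and Il4ra at -4.02 ± 0.09. Il4ra, a receptor chain through which Ccl11 can be induced, read 11.38 in fibroblasts and 10.84 in day-1 cells and was not called there. Among 13 proteases and glycan carriers that cut or hold chemokines, Mmp3 (-3.65 ± 0.15), Mmp13 (-3.0 ± 0.15) and Mmp9 (-1.31 ± 0.20) were lower in day-1 cells and Plau higher (1.30 ± 0.13). In iPS cells 9 were lower and 1 higher, against 29.6% and 21.8% of all genes, and in ES cells 12 and 1, against 32.1% and 23.4%. The higher gene was Dpp4, which trims the amino terminus of Ccl11 and Cxcl10, at 5.28 ± 0.16 (SD, n = 3) in fibroblasts and 5.24 ± 0.19 at day 1, against 7.70 ± 0.12 (iPS) and 8.12 ± 0.14 (ES). Irf5, Irak3, Dpp4 and Ccr4 are named to complete a count, after their values were seen.

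For each member the 3 genes with the most similar course were found by the root-mean-square distance between centred log2 values over the 12 arrays, a description with no test. Nearest to Cxcl10 were Ifit3b (distance 0.23, r = 0.993), Gm4951 (0.33) and Iigp1 (0.33). Ccl3 was followed by Ifit1 (0.45), Ifi205 (0.48) and Ifit3 (0.48), and Ccl11 by Oasl2 (0.44), Trim30a (0.45) and Wfdc17 (0.45). Ifit1, Ifit3, Oasl2 and Iigp1 are known as interferon-induced genes. Cxcl5 had Abi3bp (0.57), Gpm6b (0.62) and Ccl7 (0.62) nearest. For Ppbp the nearest was Ly96, the partner of Tlr4 (1.01), at 10.37 in fibroblasts and 10.16 at day 1 but 5.28 (iPS) and 4.20 (ES) in the pluripotent lines, and then Cxcl5 (1.07) and Abi3bp (1.19). Among the members, Ccl3, Ccl11 and Cxcl10 lay 0.63 to 0.67 from each other, and Cxcl10 and Ppbp were farthest apart (2.75). With 4 groups of 3 arrays, these distances largely reflect 4 group means.

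Leukocyte markers were examined because Ccl3 and Ppbp are known foremost from blood cells. Of 18 macrophage markers 11 were measured, with a mean of 7.20 to 7.42 per fibroblast array, 6.96 to 7.16 per day-1 array, 6.05 to 6.08 per iPS array and 6.01 to 6.12 per ES array. In day-1 cells Adgre1 (-2.00 ± 0.11, SE), Cd14 (-1.54 ± 0.11) and Lyz2 (-1.03 ± 0.15) were lower and C1qb higher (1.48 ± 0.12), and 7 were not called, where 4.33% of all genes were lower and 3.46% higher. In iPS cells 7 of the 11 were lower than in fibroblasts and 1 higher, against 29.6% and 21.8% of all genes. ES cells gave 7 and 1 as well, against 32.1% and 23.4%. Lyz2 fell most (-4.59 ± 0.15 in iPS and -5.39 ± 0.15 in ES cells). The higher gene was Laptm5, at 7.58 in fibroblasts against 10.19 (iPS) and 10.11 (ES). Cd68, not called, read 7.70 in fibroblasts, 8.32 in iPS and 8.48 in ES cells. Of 15 megakaryocyte and platelet markers, Pf4 and Itgb3 were in the table, with a mean of 7.83 to 7.93 per fibroblast array, 7.36 to 7.46 per day-1 array, 6.21 to 6.37 per iPS array and 6.25 to 6.42 per ES array. Of 11 neutrophil markers 0 were in the table, and of 11 lymphocyte markers 1, Cd79a, which read 3.59 to 4.19 on the fibroblast arrays. The part of such cells in the chemokine levels was not tested.

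Array 1 was the lowest of the 3 fibroblast arrays for Ccl3, Ccl11, Cxcl5 and Cxcl10 and the highest for Ppbp. It was also the lowest for 12 of the 16 other ligands, for 10 of 15 NF-kB genes and for 9 of 15 interferon genes, where 34.6% of all genes had their lowest fibroblast value on it. Without it the day-1 differences were -5.52 for Ccl3, -4.93 for Ccl11, -2.32 for Cxcl5, -4.99 for Cxcl10 and -1.21 for Ppbp.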

How the data were processed

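Total RNA of 12 samples, 3 in each of 4 groups, was labelled with biotin, per the labels' protocols. The values are log2 probe set levels in the table the authors deposited for the series, read as log2 from their range of 2.43 to 13.64. Summarisation and normalization are not given in the sources used here. Of 10360 probe sets, 9542 had 1 gene symbol in the platform annotation, 344 several and 474 none, and only the first were tested. Identifiers of 9533 matched the RefSeq gene table. Where 3 genes had more than 1 probe set, the brightest was kept, which left 9539 genes.

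The fit used limma 3.58.1 under R 4.3.3: all 12 arrays entered 1 model with 4 group means, eBayes moderated the variances, and p-values were adjusted over the 9539 genes by Benjamini-Hochberg. Every adjusted p comes from this fit. Calls combined an adjusted p under 0.05 with a log2 difference of 1 or more. The steps were tested on simulated data. Members and gene lists were chosen with earlier results of these data known. Named genes were the members, the 3 most similar genes of each, every measured ligand, and up to 4 called genes per other list and comparison, of which the text prints part. Replicate numbers did not pair the arrays. Alternatives were 2 scalings, a filter on dim genes, a fit of only the groups compared, another prior, a replicate block, averaged probe sets and fits without 1 array. Tables and plots used Python 3.11.15, pandas 2.3.3, numpy 2.4.6 and matplotlib 3.10.9.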

Additional observations from a re-analysis of the deposited data

How the results depend on the processing

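The tested differences of the 5 members between day-1, iPS and ES cells gave 285 values under 19 alternatives, and 281 kept their call. The exceptions were all of Ccl11. In iPS against day-1 cells it fell short of 2-fold with arrays centred on the common median (-0.93). In iPS against ES cells it passed 2-fold with quantile normalization (-1.10) and with centred arrays (-1.02), and over the fits that leave out 1 array it ranged from -1.01 to -0.83. Of the differences from fibroblasts, centring the arrays moved Ccl3 (-5.40), Cxcl5 (-6.62) and Ppbp (-7.56) in iPS cells and Ccl3 (-5.89), Ccl11 (-4.58), Cxcl5 (-5.41) and Ppbp (-7.32) in ES cells by more than 1 SD. Quantile normalization moved Cxcl5 (-6.70) and Ppbp (-7.57) in iPS cells and Ccl11 (-4.58), Cxcl5 (-5.49) and Ppbp (-7.39) in ES cells. All differences from fibroblasts kept their direction under the alternatives run. Of the other member differences, only those of Ccl11 and Cxcl10 in ES against day-1 cells, neither of them called, changed sign: Ccl11 to 0.04 (quantile) and 0.09 (centred), and Cxcl10 to 0.05 and 0.34, and, without 1 array, to between -0.11 and 0.07. Leaving out the dimmest 25% of genes kept 7 of the 16 other ligands, so fewer could be called: against fibroblasts 5 for day-1, 7 for iPS and 7 for ES cells, and against day-1 cells 6 for iPS and 6 for ES cells. In iPS against ES cells 2 of the other ligands were called after quantile normalization, and 1 to 2 without 1 array, the count being 2 without ES replicate 2, iPS replicate 1 or iPS replicate 2. Deviations from the group mean of same-numbered arrays correlated with r of -0.21 to 0.06 over 18 pairs, so the numbers do not pair the arrays, and with the replicate block 743 genes were called in day-1 cells against fibroblasts, as without it. The number of arrays and the missing detection calls limit what the low levels can show.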
